A study of Danio rerio with 4 samples.

Results

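The cryptochrome and photolyase genes of zebrafish were followed in RNA from whole embryos at 2 days post-fertilization (dpf). The family was given as 9 gene names, which led to 7 genes of the 31388 in the table. Of these, *cry2*, *cry3a*, *cry3b*, *cry4* and *cry5* carried the listed symbol, 5 genes in all. The other 2 genes were found through synonyms in the RefSeq annotation, where *cry1aa* is listed for *cry1a* and *cry1ab* for *cry1b*. The last 2 names, *cry1ba* and *cry1bb*, are synonyms of *cry3a* and *cry3b* there and added no gene. The family was selected on its gene names with the fold changes between these same groups already known, so the differences of its members, and the counts of members that tests over the whole table called, are given as a description and support nothing.

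Control embryos, whose labels give the genotype WT, were compared with MZ*tulp3* embryos, which lack both the maternal and the zygotic product of *tulp3*, the gene of a ciliary adapter protein. The study's *tulp3* knockout, allele *uf3*, was made with CRISPR/Cas9, and the mutant embryos sequenced were those with severe ventral body curvature, so genotype and this selection cannot be told apart. The only *tulp3* mutant strain the study lists carries *uf3* together with the *li1Tg* transgene in AB/TL, and whether the control embryos carried *li1Tg* is not given in the sources used here. Each group held 2 libraries, named as biological replicates 1 and 2, with 22589725 to 29735214 reads on genes per library. Nothing in the sources used here gives the number of embryos in a library, the light regime or the hour of collection.

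Cryptochromes and photolyases share one fold and a flavin cofactor. Photolyases use light to undo DNA damage made by ultraviolet radiation, whereas animal cryptochromes of the repressor type bind the Clock and Bmal transcription factors and close the negative feedback loop of the circadian clock. Zebrafish keep more copies than mammals, and their embryonic tissues hold clocks that light sets directly. In cell assays the proteins of *cry1a*, *cry1b*, *cry3a* and *cry3b* repress Clock and Bmal, while those of *cry2* and *cry4* do not, and *cry5* encodes the (6-4) photolyase.

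The values are normalized counts, that is, reads per gene divided by 1 size factor per library. The *tulp3* transcript was barely read, with 36 reads in control replicate 2 against 0 elsewhere, and the mutation could not be read from the level of its own transcript. Mitochondrially encoded genes took 41.0% to 71.1% of the reads, with the lowest share in control replicate 2 and the highest in MZ*tulp3* replicate 2. Neurons, skeletal muscle, epidermis and red blood cells were represented by their markers in every library. Among the retinal photoreceptor markers, 9 of 17 passed the filter on low values (at least 10 normalized counts in at least 2 libraries) and *opn1mw2* and *opn1lw1* had no read.

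Of the repressor-type cryptochromes, *cry3a* (ENSDARG00000069074) was about 4 times lower in MZ*tulp3* than in control embryos, and it had the most reads of the family in each library. Its normalized counts were 3115 and 3757 in control replicates 1 and 2, against 1088 and 649 in MZ*tulp3* replicates 1 and 2. Nothing in the sources used here states that the replicate number pairs libraries across the groups. Both MZ*tulp3* libraries lay below both control libraries, and the lower control library was still 2.86 times the higher MZ*tulp3* library. The group means were 3436 ± 454 (SD, n = 2) in control and 868 ± 310 (SD, n = 2) in MZ*tulp3* embryos, a ratio of 3.96. On the log2(normalized count + 2) scale the difference was -2.02 with a standard error of 0.34, while the replicates were 0.27 apart in control and 0.74 apart in MZ*tulp3* embryos. It ranged from -2.39 to -1.65 when 1 library at a time was left out. Of 729 genes averaging 1000 to 4000 normalized counts, 10 had a log2 fold change as low as that of *cry3a* or lower, *cry3a* included. The family was chosen with these fold changes known, so this rank is a description and supports nothing.

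The other repressor-type genes had fewer reads, and their differences were smaller than their errors. *cry1a* (ENSDARG00000045768), whose transcription light induces in zebrafish, stood at 52.0 and 87.8 normalized counts in control, against 106 and 98.0 in the MZ*tulp3* replicates. The MZ*tulp3* replicates were the 2 highest here, by a log2 fold change of 0.58 with a standard error of 1.00, so the difference was smaller than its error. *cry3b* (ENSDARG00000091131), the sister copy of *cry3a*, had 30.8 and 106 normalized counts in control, against 43.5 and 21.2 in MZ*tulp3* embryos. The groups overlapped for *cry3b*, with control replicate 2 standing above the other libraries. Its log2 fold change of -0.87 (standard error 1.47) shrank to -0.01 when that library was left out.

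For *cry1b* (ENSDARG00000011583), control replicate 1 had 0 reads and control replicate 2 had 101, against 23 and 47 reads in the MZ*tulp3* replicates. As normalized counts the libraries with reads stood at 66.7 in control and at 26.3 and 55.5 in MZ*tulp3* embryos, between which the groups overlapped. The fitted log2 fold change of 1.78 (standard error 2.13) came from the library at 0 and turned to -0.77 without it. A count of 0 allows up to 3 reads, or 1.98 to 3.54 normalized counts depending on the library, by counting error only.

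**Figure D1:**
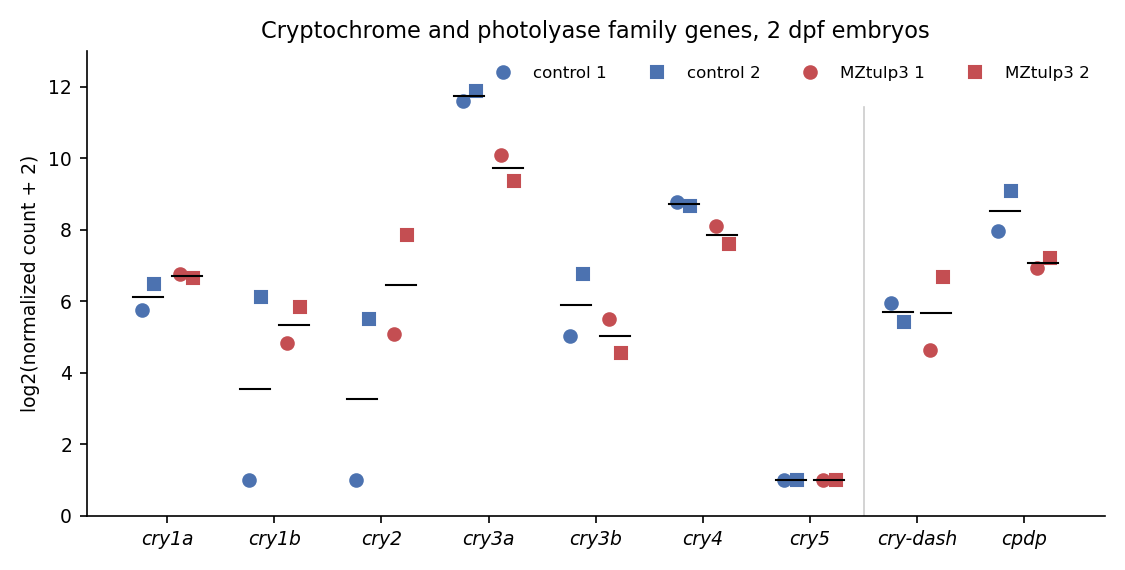
Levels of the 7 members and, right of the grey line, of 2 further photolyase family genes, as log2(normalized count + 2) on the vertical axis; each point is 1 library, circles are replicate 1 and squares replicate 2, and black lines are group means. The *cry3a* points at 3115 and 3757 normalized counts in control stand apart from those at 1088 and 649 in MZ*tulp3* embryos, and *cry5* lies at 0 reads in every library.

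Of the cryptochromes that do not repress Clock and Bmal, *cry4* had a negative fitted log2 fold change and *cry2* a positive one. The difference between these genes was not tested. *cry4* (ENSDARG00000011890), whose bird counterpart is studied as a light-sensitive magnetoreceptor, stood at 432 and 401 normalized counts in control, against 275 and 192 in the MZ*tulp3* replicates. Both MZ*tulp3* libraries were below both control libraries, with group means of 417 ± 22.3 (SD, n = 2) and 234 ± 58.3 (SD, n = 2). The log2 fold change of *cry4* was -0.85 with a standard error of 0.48, and it stayed between -1.11 and -0.60 with 1 library left out.

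*cry2* (ENSDARG00000102403), which was called *cry3* in earlier work, had 0 reads in control replicate 1 and 66 in control replicate 2, against 28 and 192 in the MZ*tulp3* replicates. These are 43.6 normalized counts in control replicate 2, and 32.1 and 227 in the MZ*tulp3* replicates. The groups overlapped, because MZ*tulp3* replicate 1 was below control replicate 2, and the high value came from MZ*tulp3* replicate 2 alone. Its log2 fold change of 3.21 carried a standard error of 2.10 and lay within 0.95 to 5.46 as single libraries were left out.

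*cry5* (ENSDARG00000019498), the (6-4) photolyase, had 0 reads in all 4 libraries. Its RNA was thus not detected in them, which does not show that it was absent. In the GRCz12tu annotation, a later build than the one the reads were mapped to, *cry5* overlaps *foxred1*, which had 62.6 and 50.2 normalized counts in control, against 66.4 and 0 in MZ*tulp3* embryos. Whether reads of one gene were assigned to the other was not tested. Of the other members, *cry1a* overlaps *btbd11a* and *cry4* overlaps *dennd2db* in that annotation, and *dennd2db* is also the next gene after *cry3b*, which lies with *cry4* on chromosome 22. The other members lie on chromosomes 4 (*cry1a*), 18 (*cry1b*), 25 (*cry2*), 8 (*cry3a*) and 10 (*cry5*). The genes on either side of *cry3a* had log2 fold changes of -0.79 (*col2a1a*) and -2.35 (*itpr3*), the latter with 180 and 30.4 normalized counts in control, against 0 and 111 in MZ*tulp3* embryos and a log2 fold change of 0.56 without MZ*tulp3* replicate 1.

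A further 2 genes of the family were not among the names given. *cpdp* (ENSDARG00000099519) encodes the photolyase of cyclobutane pyrimidine dimers, the most common lesion that ultraviolet light makes, and had 247 and 537 normalized counts in control, against 119 and 146 in MZ*tulp3* embryos. Both MZ*tulp3* libraries were below both control libraries. The log2 fold change of -1.45 (standard error 0.63) was not past the threshold (limma, p adjusted by Benjamini-Hochberg over all genes tested = 0.398, with 0.32 to 0.609 under the alternative tests and filters). It was -0.90 without control replicate 2. *cry-dash* (ENSDARG00000002396), whose protein repairs the same lesion in single-stranded DNA, had 59.7 and 40.9 normalized counts in control, against 22.9 and 100 in MZ*tulp3* embryos. The MZ*tulp3* replicates lay on either side of control, and the log2 fold change was -0.03 (standard error 1.41, adjusted p = 0.997 by limma). It lay above 0, at up to 0.29, by DESeq2, by edgeR and with a pseudocount of 10.

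**Figure D2:**
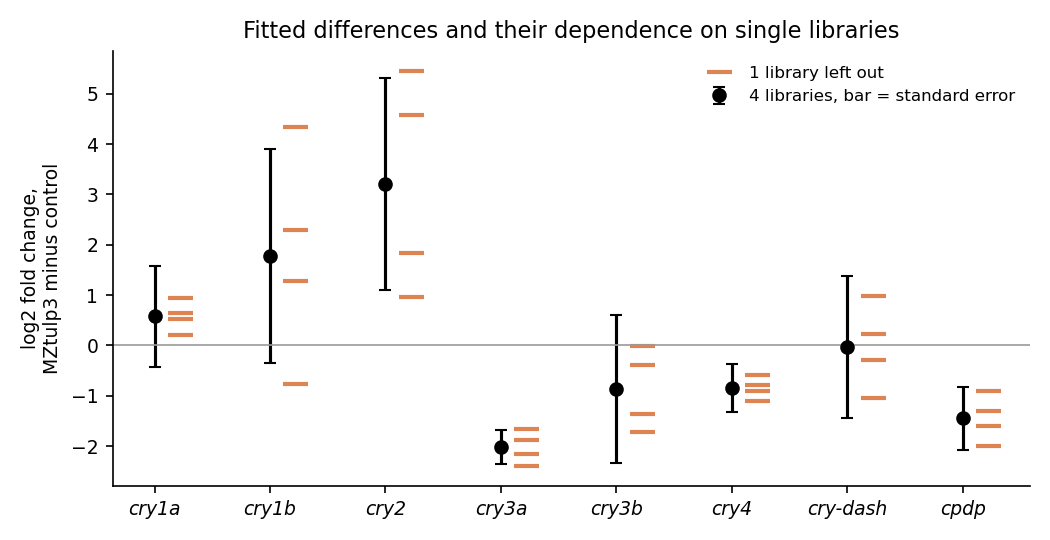
Log2 fold change (MZ*tulp3* minus control) of each family gene that passed the filter; black points are fits to the 4 libraries with their standard errors, and orange dashes are the 4 fits that each leave out 1 library. The dashes of *cry3a* lie between -2.39 and -1.65, whereas those of *cry1b* lie on both sides of 0.

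Of the 7 members 6 passed the filter, and 3 had a log2 fold change above 0 and 3 below. Their median was -0.13, beside -0.09 over the 14674 genes tested, and it was -0.78 or 0.47 when control replicate 1 or 2 was left out, and -0.29 or 0.13 when MZ*tulp3* replicate 1 or 2 was. By limma 0 members were past the adjusted p of 0.05, as were 0% of all genes in either direction, with 1873 genes or 12.8% at an unadjusted p under 0.05. DESeq2, applied to whole reads recovered from the table, called 1 member, *cry3a*, as lower, where it called 1.57% of genes lower and 0.985% higher. The edgeR test called 0 genes. With at least 10 normalized counts required in each library, limma called 1 member of 4, again *cry3a*, where it called 1.01% of genes lower and 0.18% higher. With the replicate number as a block it called 1 member, *cry3a*, where it called 1.7% of genes lower and 0.545% higher. Whether the number pairs the libraries is not known. Nothing is read from these counts. The MZ*tulp3* libraries were both below control for 2 members and both above for 1, and the same held for 23.3% and 20.0% of all genes tested.

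Libraries with 0 reads were common among genes at the level of the low members. Of 4367 genes averaging 30 to 100 normalized counts, the range of *cry1a*, *cry1b*, *cry2* and *cry3b*, 44.2% had 0 reads in at least 1 library. Their replicates were a median of 1.26 apart in control and 1.84 apart in MZ*tulp3* embryos on the log2 scale. In control the gaps of *cry1b*, *cry2* and *cry3b* were wider, at 5.10, 4.51 and 1.71, and that of *cry1a* was narrower, at 0.73. In MZ*tulp3* embryos the gap of *cry2* was wider, at 2.75, and those of *cry1a*, *cry1b* and *cry3b* were narrower, at 0.12, 1.02 and 0.97. For 3038 genes at 200 to 500 normalized counts, where *cry4* lies, the share with a library at 0 was 0.724% and the gaps were 0.56 and 0.66. At the level of *cry3a* it was 0% of 729 genes, with gaps of 0.41 and 0.36.

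The make-up of the family does not depend on the scaling between libraries, since each library is then compared with itself. Reads of *cry3a* were 79.1% of the reads on the 9 family genes in control replicate 1 (95% Wilson interval 77.8% to 80.3%, of 4090 reads) and 74.6% in control replicate 2 (73.6% to 75.5%, of 7632). In MZ*tulp3* embryos they were 63.5% in replicate 1 (61.0% to 65.9%, of 1496) and 43.6% in replicate 2 (40.9% to 46.3%, of 1262). The share was thus lower in both MZ*tulp3* libraries, and the intervals, which cover counting error only, were narrower than the gap between the replicates.

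Against *cry4*, which was itself lower, there were 7.21 and 9.37 reads of *cry3a* per read of *cry4* in the control replicates, against 3.96 and 3.37 in the MZ*tulp3* replicates. The share of *cry1a* was 1.32% and 1.74% in control, against 6.22% and 6.58% in MZ*tulp3* embryos, and that of *cry2* was at most 0.865% in control and reached 15.2% in MZ*tulp3* replicate 2. Without *cry3a*, the family summed to 822 and 1282 normalized counts in control, against to 625 and 840 in MZ*tulp3* embryos, which overlapped. A share also depends on the other genes, and *cry3a* held 43.6% to 79.1% of these reads, so the higher share of *cry1a* came with a ratio of only 1.46 between the group means of its own normalized counts. Read numbers depend on transcript length, so these shares do not rank the genes by abundance.

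**Figure D3:**
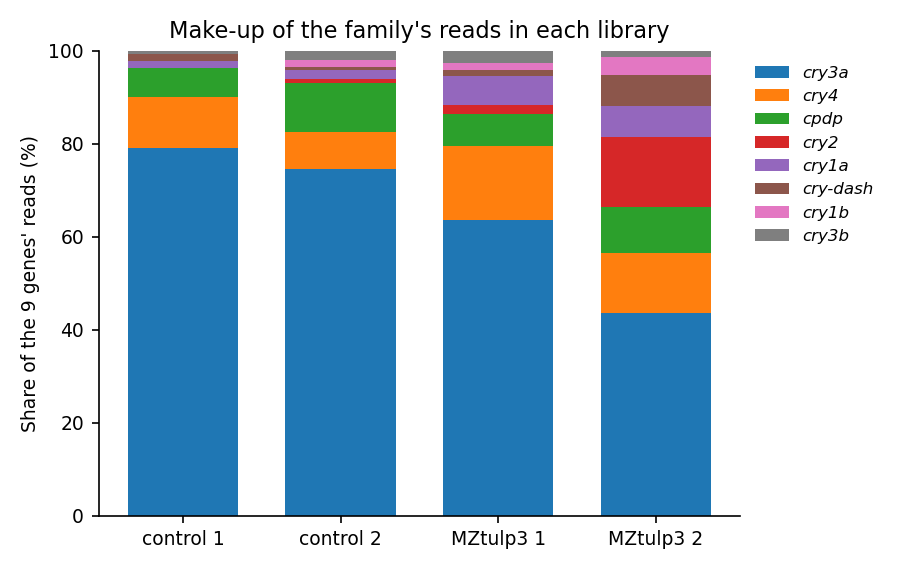
Share of the reads on the 9 family genes that each gene took, in percent, with 1 bar per library; *cry5* had no read. The share of *cry3a* was 79.1% and 74.6% in control, against 63.5% and 43.6% in MZ*tulp3* embryos.

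Markers of neurons and epidermis also differed between the groups. Of 7 neuron markers, in 6 each MZ*tulp3* library was below each control library, *elavl3* being the exception, and their summed level was 9866 and 16990 normalized counts in control, against 7302 and 4787 in MZ*tulp3* embryos. All 8 epidermis markers were higher in both MZ*tulp3* libraries, with sums of 188935 and 135897 in control, against 341689 and 445680 in MZ*tulp3* embryos. DESeq2 called 2 of the neuron markers lower, *snap25b* and *stmn2b*, and 5 of the epidermis markers higher, while limma called 0 of either list. Over all genes tested, both MZ*tulp3* libraries were below control for 23.3% and above for 20.0%, and DESeq2 called 1.57% lower and 0.985% higher. For the 10 skeletal muscle markers and the 6 red blood cell markers found, the sums overlapped between the groups. Of these, 9 muscle and 5 red blood cell markers had a log2 fold change above 0 and 1 of each list below. The medians were 0.59 and 0.38. By limma the 9 testable photoreceptor markers all had a log2 fold change below 0, with a median of -1.80. The values of *rx1* (-0.09) and *pde6c* (-0.17) were far smaller than their standard errors. For *rx1* the mean normalized count was instead higher in MZ*tulp3* embryos, at 83.0 against 30.2 in control. Its libraries stood at 55.8 and 4.62 in control, against 166 and 0 in MZ*tulp3* embryos. Of the 9 markers, 4 were lower in both MZ*tulp3* libraries. Among these 4, *rho*, *opn1lw2* and *pde6ha* had 0 reads in both MZ*tulp3* libraries. They passed the filter through control alone, which fixed their direction. The sums of the whole list, 834 and 1283 in control against 1032 and 318 in MZ*tulp3* embryos, overlapped. Of these sums *crx* made up 529 and 985 in control, against 728 and 318 in MZ*tulp3* embryos. The part of these shifts in the level of *cry3a* was not tested, and in RNA of whole embryos fewer cells of a type and less RNA per cell cannot be told apart.

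**Figure D4:**
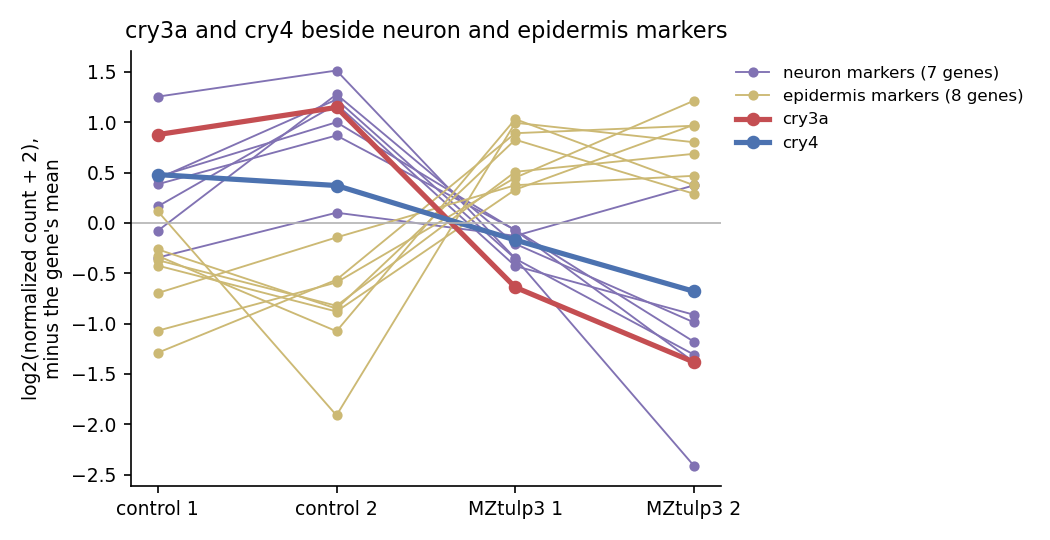
Levels of *cry3a* and *cry4* in each library beside 7 neuron and 8 epidermis markers, as log2(normalized count + 2) minus the gene's mean over the 4 libraries; lines join the values of 1 gene. *cry3a* was lower in both MZ*tulp3* libraries, as were 6 of the 7 neuron markers and 23.3% of all genes tested. The 8 epidermis markers were higher in both.

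Cryptochromes act with a set of other clock and repair proteins, and 10 lists of these genes were followed, with 106 genes in the table and 64 past the filter. Of these, 33 had a log2 fold change above 0 and 31 below, with a median of 0.06. By limma 0 were past the threshold, with 5 of 64 at an unadjusted p under 0.05, beside 12.8% of all genes tested. DESeq2 and edgeR called 0 as well. In the 8 lists of clock and repair genes, both MZ*tulp3* libraries were above control for 13 of 57 genes and below for 10, beside 20.0% and 23.3% of all genes tested.

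The period genes, whose proteins form the repressor complex with cryptochromes, held 3 testable genes with a median log2 fold change of 0.16. *per2*, which light induces in zebrafish, had 0 and 105 reads in the control replicates, against 143 and 121 in the MZ*tulp3* replicates. As normalized counts both MZ*tulp3* libraries, at 164 and 143, were above the 69.3 of control replicate 2. Its log2 fold change of 3.70 (standard error 1.96) was not past the threshold (adjusted p = 0.483 by limma) and was 1.12 without control replicate 1. *per3* had 11.6 and 4.62 normalized counts in control, against 29.8 and 0 in MZ*tulp3* embryos, and its direction depended on the test. The fourth gene, *per1a*, had reads in control replicate 2 alone, 29 in all.

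Of 6 clock activators, which are the Clock, Npas2 and Bmal proteins that cryptochromes oppose, 4 were tested and none stood apart between the groups. Both MZ*tulp3* libraries were above control for 20.0% and below for 23.3% of all genes tested, so nothing is read from this count. *bmal1a* was the steadiest, at 293 and 251 normalized counts in control, against 285 and 279 in MZ*tulp3* embryos, with a log2 difference of 0.06 (-0.16 after rescaling without mitochondrial genes) and a standard error of 0.49. The largest differences were those of *clockb* at 0.93 (standard error 1.61, adjusted p = 0.858 by limma) and *bmal2* at -0.82 (standard error 1.23, adjusted p = 0.83 by limma). Both changed direction with a library left out, *clockb* to -0.29 without control replicate 2 and *bmal2* to 0.82 without MZ*tulp3* replicate 1.

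Nuclear receptors of the Rev-erb and Ror families switch the *bmal* genes off and on in a second loop of the clock. Of these 10 genes 8 were tested, with 4 above 0 and 4 below. *rorcb* had the largest difference, with 276 and 285 reads in control, against 37 and 0 in MZ*tulp3* embryos. Its normalized counts were 266 and 188 in control, against 42.4 and 0 in MZ*tulp3* embryos, so both MZ*tulp3* libraries were below control (log2 fold change -4.58, standard error 1.81, adjusted p = 0.381 by limma). The value was -2.35 without MZ*tulp3* replicate 2. *roraa* had 220 and 482 normalized counts in control, against 345 and 10.6 in MZ*tulp3* embryos, and its log2 fold change of -2.31 (adjusted p = 0.56 by limma) became 0.08 without MZ*tulp3* replicate 2.

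The bZIP factors of the Tef, Dbp, Hlf and Nfil3 type bind the D-box, a motif through which light acts on clock genes in zebrafish. Here 6 of 10 were tested, and their log2 fold changes had a median of 0.25 and a range of -0.54 to 2.17. *tefb* had 7.70 and 12.5 normalized counts in control, against 20.6 and 125 in MZ*tulp3* embryos, so it was higher in both MZ*tulp3* libraries (log2 fold change 2.17, standard error 1.73, adjusted p = 0.639 by limma). It was 0.93 without MZ*tulp3* replicate 2. *dbpb* had 0 and 51.5 in control, against 6.87 and 102 in MZ*tulp3* embryos, which overlapped (log2 fold change 1.55, adjusted p = 0.826 by limma), and leaving out control replicate 1 or MZ*tulp3* replicate 2 gave -0.82 or -0.22.

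Among the other clock-controlled repressors, *bhlhe40* was higher in both MZ*tulp3* libraries, with 249 and 91.1 normalized counts in control, against 291 and 461 in MZ*tulp3* embryos. Its log2 fold change was 1.27 (standard error 0.68, adjusted p = 0.485 by limma), or 0.55 without control replicate 2 and 1.98 without control replicate 1. Its paralogue *bhlhe41* had 14.4 and 42.3 normalized counts in control, against 0 and 96.8 in MZ*tulp3* embryos, and its log2 fold change was -0.94 by limma and above 0 by DESeq2 and edgeR.

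Casein kinase 1 phosphorylates clock proteins and so marks them for turnover, and 4 genes of kinases and ligases were tested, 3 with a log2 fold change above 0 and 1 below. *csnk1e* had 795 and 601 normalized counts in control, against 116 and 246 in MZ*tulp3* embryos, and the lower control library was 2.45 times the higher MZ*tulp3* library. The log2 fold change was -2.02 (standard error 0.53), with an adjusted p of 0.379 by limma and from 0.0819 to 0.483 under the alternative tests and filters, and of 0.0326 by limma with the replicate number as a block. *csnk1db* had 532 and 514 normalized counts in control, against 774 and 904 in MZ*tulp3* embryos, so both MZ*tulp3* libraries were above control (log2 fold change 0.68, standard error 0.34, adjusted p = 0.464 by limma). Its paralogue *csnk1da* had a log2 fold change of 0.28, with overlapping groups.

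Nucleotide excision repair removes the ultraviolet lesions that photolyases do not reverse. Of its 28 genes 27 were tested, 15 with a log2 fold change above 0 and 12 below, around a median of 0.06. Both MZ*tulp3* libraries were above control for 7 and below for 6 of them, beside 20.0% and 23.3% of all genes tested. The largest differences were those of *gtf2h2*, a subunit of the repair factor TFIIH, and *uvssa*, a factor of transcription-coupled repair. *gtf2h2* had 214 and 175 normalized counts in control, against 164 and 0 in MZ*tulp3* embryos (log2 fold change -3.42, adjusted p = 0.541 by limma), and the value was -0.24 without MZ*tulp3* replicate 2. *uvssa* had 23.1 and 0 in control, against 90.5 and 36.6 in MZ*tulp3* embryos (log2 fold change 3.08, adjusted p = 0.55 by limma, and 1.25 without control replicate 2).

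Most non-visual opsin and melatonin genes were too low in these libraries to be tested. Of 26 non-visual opsin genes 15 had no read and 4 passed the filter, and of 13 genes of melatonin synthesis and reception 5 had no read and 3 passed. The opsins summed to 180 and 242 normalized counts in control, against to 84.7 and 67.3 in MZ*tulp3* embryos, and the melatonin genes to 370 and 358 in control, against to 141 and 130 in MZ*tulp3* embryos. Both sums were lower in both MZ*tulp3* libraries. Of the testable opsins 3 had a log2 fold change below 0 and 1 above (median -2.01). *opn4.1* and *tmtopsb* reached the filter through the control libraries alone, so their direction was fixed by it. The median and the opsin sum depend on them, as they held 54.9 and 85.7 of the 180 normalized counts in control replicate 1. All 3 testable melatonin genes were below 0 (median -1.39), but 0 genes of either list were past the threshold by limma, DESeq2 or edgeR.

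**Figure D5:**
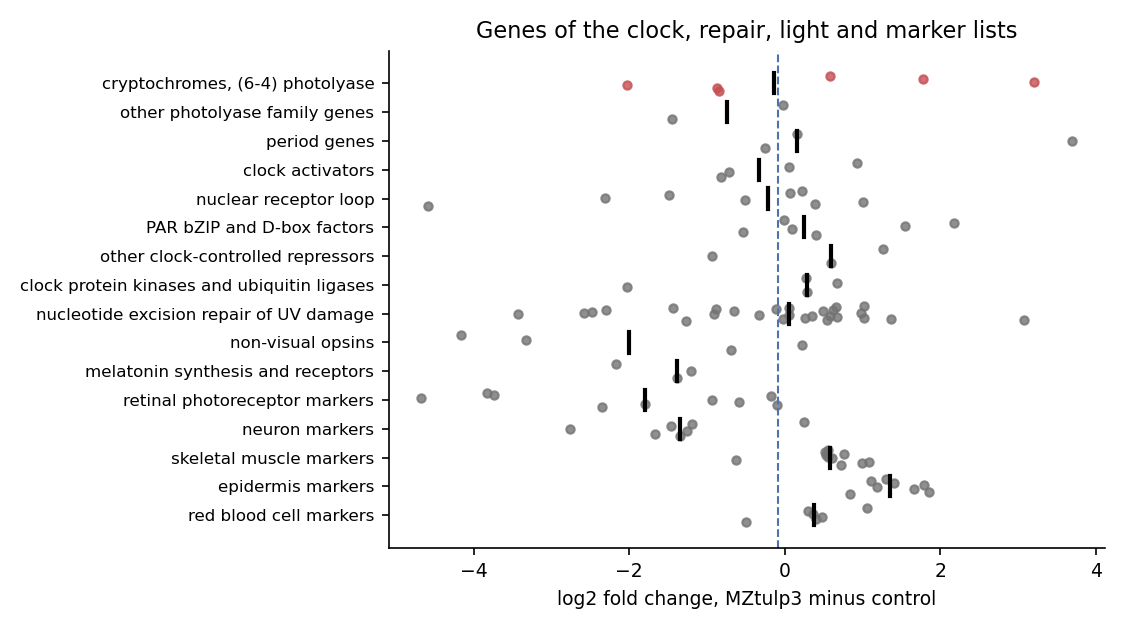
Log2 fold change (MZ*tulp3* minus control) of every gene that passed the filter in the family (red), the 10 companion lists and the 5 marker lists; points are genes, black ticks list medians and the dashed line the median of all genes tested, -0.09. The medians of the clock and repair lists lie between -0.74 and 0.60, those of the opsins and melatonin genes at -2.01 and -1.39, and those of the neuron and epidermis markers at -1.34 and 1.35. The opsins *opn4.1* and *tmtopsb* and the photoreceptor markers *rho*, *opn1lw2* and *pde6ha* passed the filter through the control libraries alone, which fixed their direction.

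The profile of each member over the 4 libraries was set against the other members and the clock and repair genes, by the root mean square distance between log2 values centred on their means. The nearest to *cry3a* was *ercc5*, a nuclease of excision repair, at a distance of 0.26. It had 347 and 392 normalized counts in control, against 119 and 44.9 in MZ*tulp3* embryos. Next to *cry4* was *gtf2h1* (0.26), next to *cry1a* was *csnk1da* (0.25) and next to *cry3b* was *rorab* (0.38). For *cry1b* and *cry2* it was *dbpb*, at 0.91 and 0.88, which also had 0 reads in control replicate 1. No member had another member as its nearest gene. Of the 62 genes searched for each member, 57 were from the clock and repair lists, so nothing is read from this.

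Over the whole table the profiles nearest to *cry3a* were those of *caskb*, *kidins220b* and *jagn1a*, at distances of 0.06, 0.07 and 0.08. *kidins220b* had 6665 and 8862 normalized counts in control, against 2359 and 1554 in MZ*tulp3* embryos. *caskb* had 1798 and 2124 in control, against 685 and 398 in MZ*tulp3* embryos. *jagn1a* had 684 and 720 in control, against 218 and 125 in MZ*tulp3* embryos. Those nearest to *cry2*, the member with the largest fitted log2 fold change, were *tonsl*, *nampt1* and *nsmce2* at 0.13, 0.15 and 0.19, each with 0 reads in control replicate 1. Many of 14673 genes can lie close to a profile of 4 values, and the distances are a description.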

How the data were processed

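Total RNA of whole embryos was enriched for poly(A) RNA and sequenced in 2 control and 2 MZ*tulp3* libraries. The authors trimmed the reads with Trim Galore, aligned them with STAR, and counted them with RSEM against GRCz10, with DESeq2 for normalization and testing. The deposited signal values, though named counts, are reads divided by 1 size factor per library (0.847 to 1.51), since 100% of the values were whole multiples of 1 constant per library within 1e-06 reads. Columns of regularized logarithms and of the authors' own comparison (fold change, its error and p-values) were not used. Multi-mapping of paralogues and strand use in counting were not given in the sources used here.

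The 2 groups were compared in limma (eBayes with an intensity trend) on log2(normalized count + 2) for the 14674 genes with at least 10 normalized counts in at least 2 libraries, with Benjamini-Hochberg adjustment over these and a threshold of 0.05. DESeq2 and edgeR were run on the recovered reads as alternatives. Other alternatives were TMM scaling, pseudocounts of 0.5 and 10, no filter, the filter applied to each library, a replicate block, leaving out each library, and rescaling without mitochondrial genes. Versions were 4.3.3 for R, 3.58.1 for limma, 1.42.0 for DESeq2 and 4.0.16 for edgeR. How many of the DESeq2 calls in these libraries are false was not tested. The labels name the replicates as biological, but nothing states how they were collected. The p-values measure the spread between these libraries, and how far that spread is biological is not known. The smallest two-sided p from exchanging 2 and 2 libraries is 0.333.

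The members and lists were chosen with earlier results of these data known. Companion lists covered other photolyases, period genes, clock activators, nuclear receptors, D-box factors, other repressors, kinases and ligases, excision repair, opsins and melatonin genes, and 1 clock item is not reported here. Genes were named if they were members, were called by limma or DESeq2, had 1 of the 2 largest differences in a clock or repair list, or were nearest in profile; *bmal1a*, *per1a*, the whole-table profiles nearest to *cry3a* and genes beside members were named after their values were seen. Synonyms came from RefSeq (GRCz12tu), used for names and neighbours alone. Wilson intervals are at 95% and cover counting error only.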

Additional observations from a re-analysis of the deposited data

How the results depend on the processing

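By limma 0 genes were called across the table, 0 among the members and 0 in the companion lists. DESeq2 called 353 genes (136 higher, 217 lower) and 1 member, and limma with the filter of 10 applied to each library called 112 genes (17 higher, 95 lower) and 1 member. The member was *cry3a* under both. With the replicate number as a replicate block 329 genes were called (80 higher, 249 lower), with 1 member (*cry3a*) and 1 companion gene (*csnk1e*). The deviations of same-numbered libraries from their group means were not correlated (r = -0.003 over 14674 genes, 2 pairs). With 2 libraries a group this cannot decide whether the number pairs them, and nothing states that it does. The counts stayed at 0 with edgeR, TMM scaling, other pseudocounts, no filter, rescaling without mitochondrial genes, and each library left out. That rescaling moved the median of all genes tested from -0.09 to -0.29, and relative to it *cry3a* stood at -1.95 in place of -1.93. The median of the members ranged from -0.78 to 0.47 with 1 library left out. Among members *cry1b* alone changed direction under the alternatives run, with a range of -0.77 to 4.33 over single libraries left out. Leaving out 1 of 2 libraries moves a fold change by a fixed part of the gap between replicates, so these ranges restate that gap. For 29 other named genes, 336 of 365 alternatives kept direction and call, 8 added a call and 21 changed direction. The added calls were of *kidins220b* and *caskb* under DESeq2, the filter in each library and the block, and of *jagn1a* and *csnk1e* under the block, and the first 3 were picked for their likeness to *cry3a*. The changes of direction were those of *bmal1a* (-0.1608 without mitochondrial genes), *bhlhe41* (0.77 by DESeq2, 0.74 by edgeR), *per3* (0.88 by both, 0.17 with a pseudocount of 10) and *cry-dash* (0.29, 0.28 and 0.0161 in these settings). With 1 library left out the ranges were -4.70 to 0.0792 for *roraa*, -0.82 to 3.92 for *dbpb*, -0.29 to 2.16 for *clockb*, -3.75 to 1.87 for *bhlhe41*, -2.24 to 1.75 for *per3*, -2.46 to 0.82 for *bmal2*, -0.0541 to 0.17 for *bmal1a*, -5.26 to 0.56 for *itpr3* and -1.05 to 0.99 for *cry-dash*. The cause was not tested. The 2 libraries a group limit precision most at low counts, where replicates lay furthest apart.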
